A study of Sus scrofa with 6 samples.

Results

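The genes described here are BTG4 and 9 genes of the mRNA deadenylases, the enzymes that shorten the poly(A) tail: CNOT1, CNOT2, CNOT3, CNOT6L, CNOT7 and CNOT8 of the CCR4-NOT complex, PAN2 and PAN3 of the PAN2-PAN3 complex, and PARN. They were taken by pig Ensembl symbol, each symbol matched 1 identifier, and together they are 10 of the 25880 genes in the count tables. The libraries were made from pig (Sus scrofa) oocytes at metaphase II (MII), the arrest in which a mature oocyte waits for sperm. The malathion group held 3 libraries from oocytes matured in vitro with malathion, an organophosphate insecticide, at 1 mM, diluted from a 0.75 M stock in DMSO. The control group held 3 libraries from oocytes matured without it, and the labels do not say whether these received DMSO. Both groups came from cumulus-oocyte complexes aspirated from antral follicles of 3 to 6 mm in slaughterhouse ovaries. No label gives breed, age, the number of oocytes in a library or whether replicates were separate cultures, so p-values measure a spread between libraries that may be technical.

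A growing oocyte stores mRNA with short tails, lengthens the tails of some during maturation to translate them, and clears many maternal transcripts before the embryo takes over. Clearance starts with removal of the poly(A) tail. In mouse oocytes BTG4 is made during maturation, binds the CCR4-NOT nucleases CNOT7 and CNOT8 and the cap-binding protein eIF4E, and brings the nuclease to translated mRNA. Mouse females without Btg4 are infertile, and their eggs keep maternal transcripts that are normally lost. The libraries were primed on poly(A) tails, so a shorter tail and fewer molecules cannot be told apart in these counts, nor can less RNA per oocyte and fewer oocytes.

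Gene counts ranged from 25816040 to 42312341 per library, and levels are given as counts scaled to 1000000 per library (CPM). Transcript lengths were not used, so a level is compared between libraries and not between genes. Intervals around a level are exact Poisson 95% intervals, which cover counting error only. Malathion replicates 1 and 2 and control replicate 1 resembled each other closely (r = 0.975 to 0.986 across 10678 genes for log2 of CPM plus 1). Their r with control replicate 2 was 0.851 to 0.872, and their r with malathion replicate 3 and control replicate 3 was 0.603 to 0.621. Malathion replicate 3 and control replicate 3 had r = 0.757 with each other. With control replicate 2 they had r = 0.540 and 0.541. The summed level of 14 oocyte markers, such as WEE2, BMP15 and ZP4, was 41311, 38173 and 4061 CPM in malathion replicates 1, 2 and 3, and 44325, 24065 and 1414 CPM in control replicates 1, 2 and 3. The number of these markers at 0 counts was 1 in malathion replicate 3 and 3 in control replicate 3. The markers did not move as one in malathion replicate 3. ZP2, MOS and NOBOX were at their highest there (2158, 1458 and 54.2 CPM), and all other oocyte markers had their highest level elsewhere. In control replicate 3 ZP2, MOS and NOBOX stood at 23.9, 2.85 and 0.170 CPM. The replicate 3 libraries detected 8492 genes (malathion) and 8344 genes (control), against 12211 to 14707 in the other 4. Markers of cumulus and granulosa cells (12 measured) summed to 66.2 to 728 CPM in malathion and 37.0 to 654 CPM in control libraries, with AMH at 0 in each, and their part in the values below was not tested. VCAN and KITLG made up most of the sum in each library (424 and 244 CPM in malathion replicate 1). HAS2, PTX3, TNFAIP6 and FSHR did not exceed 2.56 CPM in any library. Markers of theca, stroma, blood and endothelium (10 measured) summed to 0.567 to 15.4 CPM in malathion and 0.916 to 12.5 CPM in control libraries, with CYP17A1 and CDH5 at 0 in each.

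BTG4 (ENSSSCG00000015020), the adaptor, was among the 5 genes with the most reads in 4 of the 6 libraries and varied widely between libraries. It stood at 44538, 24612 and 521 CPM in malathion replicates 1, 2 and 3, and at 34834, 7710 and 2880 CPM in control replicates 1, 2 and 3. Its rank among all genes of a library was 2, 3 and 221 in the malathion libraries and 3, 5 and 76 in the control libraries. The groups overlapped, and the highest and the lowest library were both malathion. The group means were 23223 ± 22042 CPM after malathion and 15141 ± 17224 CPM in control (SD, n = 3 each). In the edgeR quasi-likelihood fit on library totals, the log2 fold change was 0.62 ± 1.82 (SE; 95% interval −2.95 to 4.18, adjusted p = 1). It turned negative with TMM scaling factors (−0.19) and without malathion replicate 1 (−0.27), and was 2.13 without control replicate 1. Malathion replicate 1 stood 1.28-fold above control replicate 1, malathion replicate 2 stood 3.19-fold above control replicate 2, and malathion replicate 3 stood at 0.181 of control replicate 3.

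**Figure D1:**
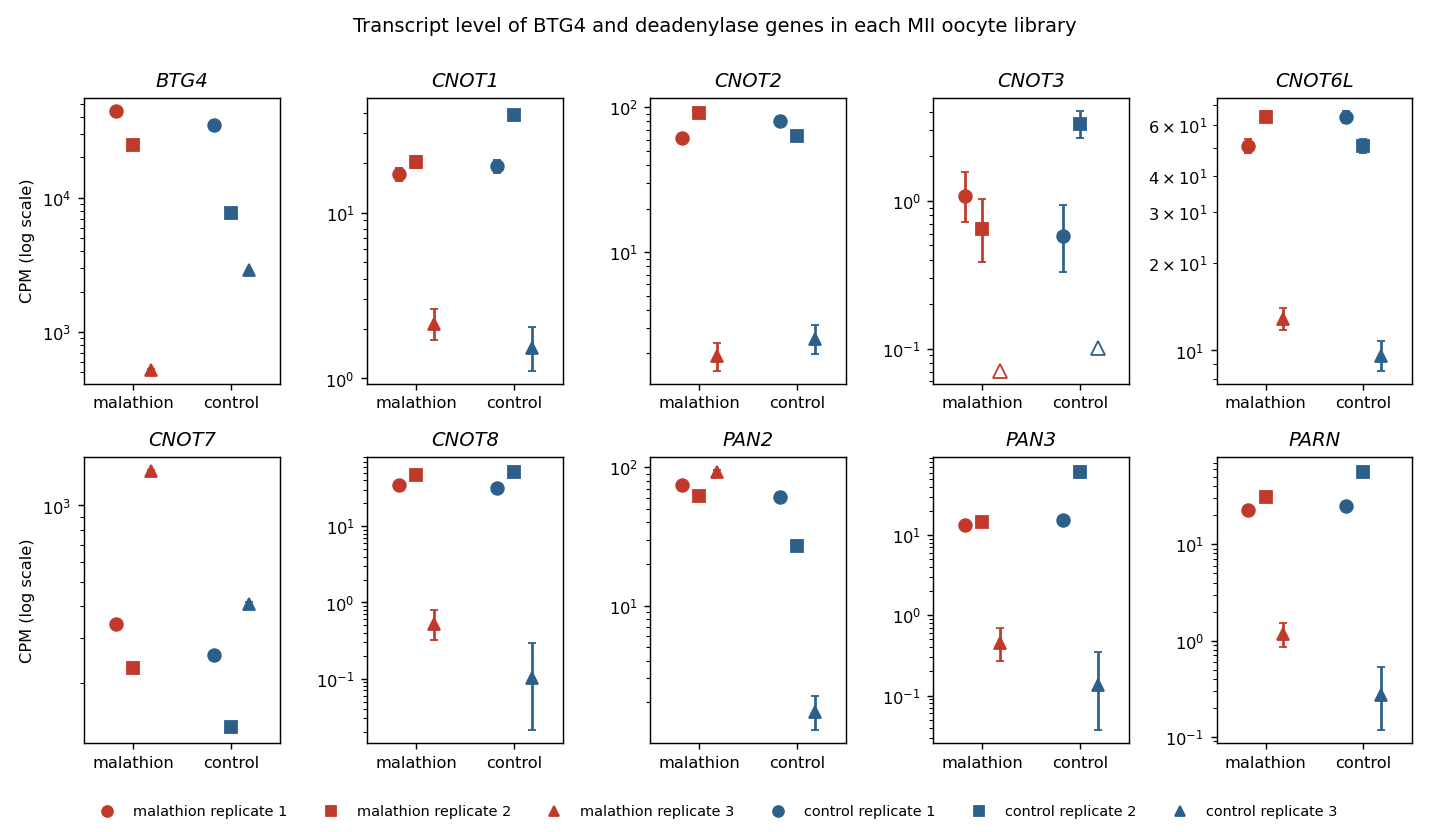
Level of each gene in each library, in CPM on a log scale that differs between panels, with malathion libraries left and control libraries right. Bars are exact Poisson 95% intervals of the count, and open symbols mark 0 counts, drawn at the level of 3 counts. On this scale of library totals the replicate 3 libraries (triangles) are lowest for 8 of the 10 genes, while CNOT7 is highest in them.

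CNOT7 and CNOT8 are paralogous nuclease subunits of the CCR4-NOT complex, and their levels went opposite ways in the replicate 3 libraries. CNOT7 (ENSSSCG00000006983) stood at 341, 228 and 1366 CPM in malathion replicates 1, 2 and 3, and at 257, 134 and 408 CPM in control replicates 1, 2 and 3. Both replicate 3 libraries were above the other 4, a pattern found for 1.79% of the 10678 tested genes. In each pair of same-numbered libraries the malathion library was the higher, by 1.33-fold, 1.71-fold and 3.35-fold for pairs 1, 2 and 3. Across the groups the levels overlapped, and the log2 fold change of 1.28 ± 1.83 (SE; 95% interval −2.31 to 4.86) did not pass edgeR's quasi-likelihood test (adjusted p = 1). Without malathion replicate 3 it was 0.096.

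CNOT8 (ENSSSCG00000017067) stood at 34.8, 46.7 and 0.520 CPM in malathion replicates 1, 2 and 3, and at 31.5, 51.5 and 0.102 CPM in control replicates 1, 2 and 3. The value of control replicate 3 rests on 3 counts (0.0210 to 0.298 CPM) and that of malathion replicate 3 on 22 counts (0.326 to 0.787 CPM). The groups overlapped, and the 4 libraries of replicates 1 and 2 lay within 31.5 to 51.5 CPM. The fitted log2 fold change was −0.020 ± 1.99 (SE; 95% interval −3.92 to 3.88), and 0.36 with TMM factors. Reads of the paralogs could in part align to both genes. HTSeq has a row for reads aligned to more than 1 place, but how such reads were handled is not given in the sources used here.

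CNOT6L (ENSSSCG00000008989), a nuclease of the other catalytic family of the complex, had the smallest span over the libraries among the 9 genes detected in each. It stood at 50.6, 64.0 and 12.9 CPM in malathion replicates 1, 2 and 3, and at 63.9, 50.6 and 9.60 CPM in control replicates 1, 2 and 3. Its highest library was 6.66-fold above its lowest, against 10.2-fold for CNOT7 and 506-fold for CNOT8. The groups overlapped and the log2 fold change was 0.038 ± 1.93 (SE; 95% interval −3.75 to 3.82). Its paralog CNOT6 (ENSSSCG00000014009), which is not one of the 10, had 3.52, 6.23 and 0 CPM in malathion replicates 1, 2 and 3 and 3.92, 10.1 and 0.0339 CPM in control replicates 1, 2 and 3. CNOT6L therefore gave 14.4 and 10.3 reads per CNOT6 read in malathion replicates 1 and 2 and 16.3 and 4.99 in control replicates 1 and 2, while in the replicate 3 libraries CNOT6 had 0 counts (malathion) and 1 count (control).

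The scaffold CNOT1 and the subunits CNOT2 and CNOT3, which bind its end as a pair, differed between libraries each in its own way. CNOT1 (ENSSSCG00000002799) stood at 17.0, 20.1 and 2.13 CPM in malathion replicates 1, 2 and 3, and at 19.0, 38.7 and 1.53 CPM in control replicates 1, 2 and 3. CNOT2 (ENSSSCG00000000502) stood at 61.6, 91.3 and 1.91 CPM in malathion replicates 1, 2 and 3, and at 80.7, 63.0 and 2.51 CPM in control replicates 1, 2 and 3. For both genes the groups overlapped, and control replicate 2 was the highest library for CNOT1 but not for CNOT2. CNOT3 (ENSSSCG00000003264) was close to the detection limit, at 1.08, 0.648 and 0 CPM in malathion replicates 1, 2 and 3, and at 0.576, 3.32 and 0 CPM in control replicates 1, 2 and 3. For the counts of 0 the interval reached up to 0.0872 CPM in malathion replicate 3 and 0.125 CPM in control replicate 3. In the edgeR fit the log2 fold changes were −0.59 ± 2.09 for CNOT1, 0.083 ± 1.91 for CNOT2 and −1.17 ± 2.72 for CNOT3 (SE, adjusted p = 1 for each). With TMM factors the sign turned for CNOT1 (0.035), and without control replicate 2 it turned for CNOT1 (0.35) and CNOT3 (0.99).

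PAN2, the nuclease that trims long tails first, was the one gene of the 10 whose groups did not overlap. PAN2 (ENSSSCG00000000393) stood at 73.9, 62.0 and 92.1 CPM in malathion replicates 1, 2 and 3, and at 61.3, 27.2 and 1.70 CPM in control replicates 1, 2 and 3. The lowest malathion library was only just above the highest control library, and their counting intervals of 59.1 to 65.0 CPM and 58.4 to 64.3 CPM overlap. Groups that do not overlap with malathion higher were found for 26 of the 10678 tested genes (0.243%), and in either direction for 80 (0.749%). With malathion lower there were 54 such genes (0.506%) and 0 of the 10. Malathion was 1.21-fold, 2.28-fold and 54.3-fold above control in pairs 1, 2 and 3, with counting intervals of 1.13 to 1.29, 2.09 to 2.49 and 41.1 to 73.3. The group means were 76.0 ± 15.1 CPM after malathion and 30.1 ± 29.9 CPM in control (SD, n = 3 each). The log2 fold change of 1.34 ± 1.94 (SE; 95% interval −2.47 to 5.15) did not pass edgeR's quasi-likelihood test (adjusted p = 1). With TMM factors it was 3.99 ± 1.498 (adjusted p = 0.9998, unadjusted p = 0.0182), without control replicate 3 it was 0.78, and without both replicate 3 libraries 0.62 ± 0.55.

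PAN3 (ENSSSCG00000009319), the subunit that ties PAN2 to poly(A)-binding protein, stood at 13.3, 14.6 and 0.449 CPM in malathion replicates 1, 2 and 3, and at 15.2, 61.0 and 0.136 CPM in control replicates 1, 2 and 3. Control replicate 2 was apart on the high side, and the other 3 libraries of replicates 1 and 2 lay within 13.3 to 15.2 CPM. The log2 fold change was −1.43 ± 2.11 (SE; 95% interval −5.56 to 2.71) in the edgeR fit, and 0.30 without control replicate 2. PARN (ENSSSCG00000007878), a cap-binding deadenylase that acts in frog oocytes during maturation, stood at 22.7, 30.8 and 1.16 CPM in malathion replicates 1, 2 and 3, and at 24.6, 55.5 and 0.271 CPM in control replicates 1, 2 and 3. The groups overlapped for both genes, with control replicate 3 lowest and control replicate 2 highest. The PAN3 values of malathion replicate 3 and control replicate 3 rest on 19 and 4 counts. That of PARN in control replicate 3 rests on 8 counts (0.117 to 0.535 CPM). PARN had a log2 fold change of −0.56 ± 2.03 (SE; 95% interval −4.53 to 3.42), which turned positive with TMM factors (0.10).

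None of the 10 genes, which all passed the filter on low counts, passed edgeR's quasi-likelihood test, and neither did any other of the 10678 tested genes (0 called, 0%). At an unadjusted p under 0.05 there were 110 genes (1.03%), with 0 of the 10 among them. TMM factors and DESeq2 called 0 genes too, with 383 (3.59%) and 227 (2.13%) at an unadjusted p under 0.05. Both shares are of all 10678 genes, although DESeq2 gave no p for some, CNOT7 and PAN2 among them. Of the 10 genes 5 had a positive and 5 a negative log2 fold change, with a median of 0.0091, against a median of −0.33 over all tested genes, of which 33.7% were positive. With TMM factors 7 were positive and 3 negative (median 0.11), against a median of −0.077 over all genes. The 95% intervals of the 10 log2 fold changes, which are not adjusted for the number of genes, had half-widths of 3.56 to 5.33. Differences within those bounds were not detectable with these libraries, and larger ones could still miss the adjusted threshold. Without both replicate 3 libraries the half-widths were 1.11 to 3.17, the fold changes ranged from −1.45 for PAN3 to 0.70 for BTG4, and no gene was called (0 of 11637, 0%). Without adjustment, 260 genes (2.23%) had a p under 0.05 there.

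**Figure D2:**
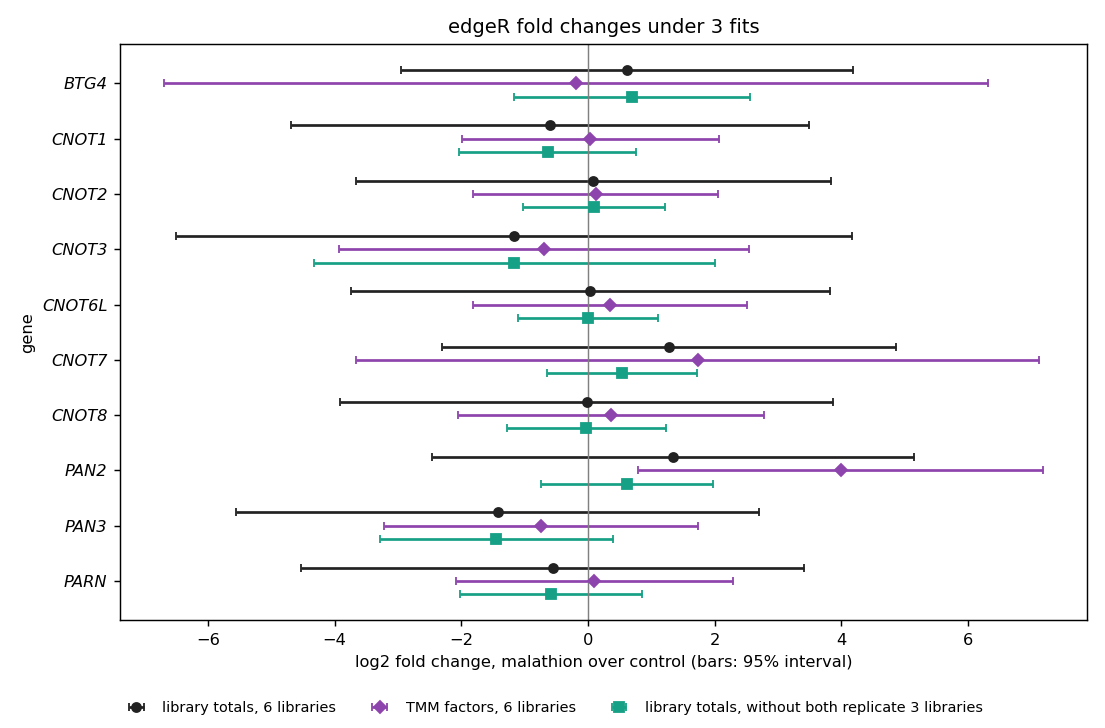
Log2 fold change of each gene, malathion over control, from edgeR's quasi-likelihood fit with its 95% interval, for 3 fits. The interval crosses 0 for each gene under each fit except PAN2 with TMM factors (0.79 to 7.19), whose adjusted p was 0.9998.

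The 3 pairs of same-numbered libraries differed in how far malathion and control were apart. In pair 1 the log2 ratios of CPM plus 1 for the 10 genes lay between −0.38 (CNOT2) and 0.40 (CNOT7), with a median of 0.014 against −0.080 over all tested genes, and 5 genes were higher and 5 lower after malathion. Pair 2 ranged from −1.99 (PAN3) to 1.67 (BTG4), again 5 higher and 5 lower, with a median of 0.096 against −0.37 over all genes. In pair 3 the range was −2.47 (BTG4) to 5.11 (PAN2), with 7 higher, 2 lower and CNOT3 at 0 in both libraries. The median there was 0.37, against 0 over all tested genes. The SD over the 10 genes was 0.31, 1.18 and 1.90 in pairs 1, 2 and 3, against 0.50, 1.23 and 1.62 over all tested genes. CNOT7 and PAN2 were higher in the malathion library of each pair. Of all tested genes, 41.9%, 36.5% and 41.6% were higher after malathion in pairs 1, 2 and 3. The share that was higher in each of the 3 pairs was not computed. BTG4, the gene with the highest ratio of pair 2, had the lowest of pair 3.

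**Figure D3:**
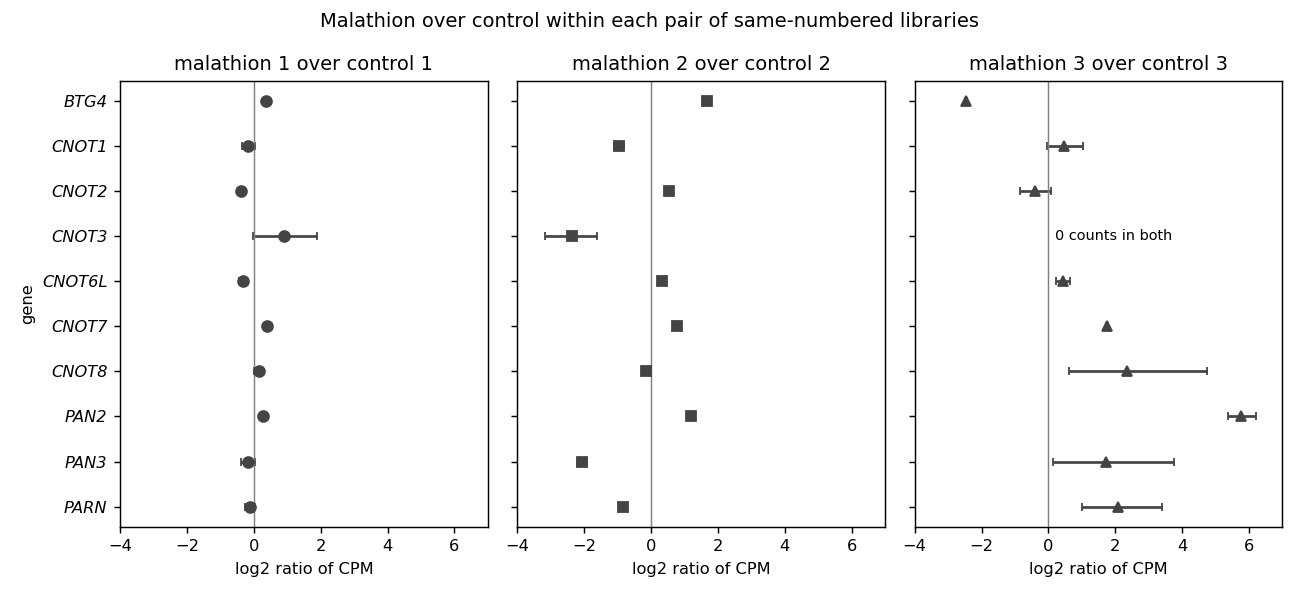
Log2 ratio of CPM, malathion over control, for each gene in each pair of same-numbered libraries, with counting intervals at 95%. Ratios of pair 1 lie between −0.39 (CNOT2) and 0.91 (CNOT3), while those of pair 3 reach −2.47 for BTG4 and 5.76 for PAN2.

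Control replicate 2 and the replicate 3 libraries carried most of the spread within groups. On library totals, both replicate 3 libraries were the lowest for 8 of the 10 genes, all but CNOT7 and PAN2. This is close to the 83.8% of all tested genes with that order. TMM factors were 0.138 for malathion replicate 3 and 0.141 for control replicate 3, against 2.255 to 3.571 for the other libraries. Scaling by them would raise the replicate 3 levels relative to the others, and the order of libraries was not computed on that scale. Control replicate 2 held the highest CPM of 5 genes (CNOT1, CNOT3, CNOT8, PAN3 and PARN), against 54.7% of all tested genes. It was below the other 3 libraries of replicates 1 and 2 for BTG4, CNOT7 and PAN2, a position held by 24.6% of tested genes. Malathion replicate 3 held the highest CPM of CNOT7 and PAN2, against 2.91% of tested genes. Over malathion replicates 1 and 2 and control replicate 1, the highest of the 3 values was 1.81-fold above the lowest for BTG4 and 1.14-fold to 1.88-fold for the 9 others, against a median of 1.53-fold over all genes tested and above 0 there. Without control replicate 2 and both replicate 3 libraries, fold changes on the log2 scale ran from −0.16 (CNOT6L) to 0.59 (CNOT3), where the lone control library is assumed to vary like the malathion libraries.

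Ratios of 2 genes within a library do not depend on how libraries are scaled, and 7 such ratios were compared. Reads of BTG4 per read of CNOT7, the adaptor and the nuclease it binds, were 131, 108 and 0.381 in malathion replicates 1, 2 and 3, and 136, 57.6 and 7.06 in control replicates 1, 2 and 3. Malathion replicate 3 was the 1 library with fewer reads of BTG4 than of CNOT7. The mean log2 ratio was 4.13 ± 4.78 after malathion and 5.25 ± 2.19 in control (SD, n = 3 each; difference −1.12, exact two-sided permutation p = 0.8, adjusted p = 0.9 over 7 ratios). Reads of CNOT8 per read of CNOT7 were 0.102, 0.204 and 0.000381 in malathion replicates 1, 2 and 3, and 0.122, 0.385 and 0.000250 in control replicates 1, 2 and 3. Both replicate 3 libraries were thus apart from the other 4 in the balance of these paralogs, in the same direction. PARN per CNOT7 had a like pattern, with 0.000848 in malathion replicate 3 and 0.000666 in control replicate 3 against 0.0667 to 0.415 in the other 4 libraries. The value of control replicate 3 rests on 8 reads of PARN.

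Reads of PAN2 per read of PAN3 were 5.55, 4.24 and 205 in malathion replicates 1, 2 and 3, and 4.04, 0.446 and 12.5 in control replicates 1, 2 and 3. The malathion library was the higher in each of the 3 pairs, while the groups overlapped. The mean log2 ratio was 4.07 ± 3.10 after malathion and 1.44 ± 2.38 in control (SD, n = 3 each; difference 2.62, exact two-sided permutation p = 0.4, adjusted p = 0.9). Control replicate 2 was the 1 library with fewer PAN2 than PAN3 reads. CNOT2 per CNOT1 was 3.62, 4.55 and 0.90 in malathion replicates 1, 2 and 3 and 4.25, 1.63 and 1.64 in control replicates 1, 2 and 3. The exact two-sided permutation p of the 7 ratios lay between 0.4 and 0.9, where 0.1 is the smallest that 3 against 3 libraries allow.

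**Figure D4:**
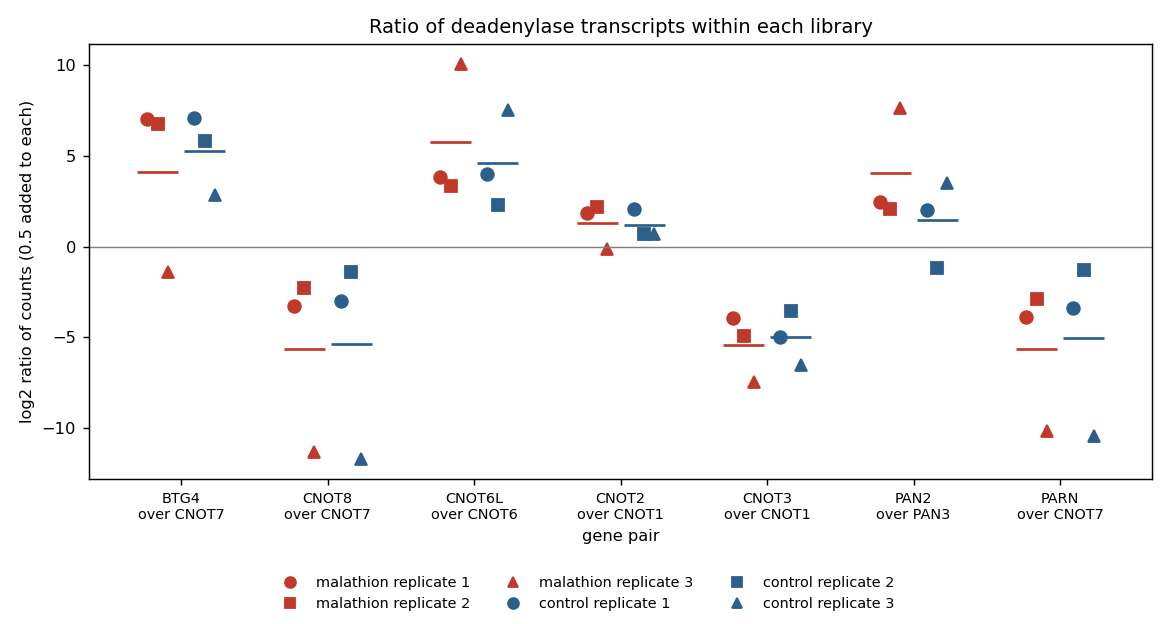
Log2 ratio of the counts of 2 genes within each library, with 0.5 added to each count. Short lines are group means of 3 libraries. CNOT8 over CNOT7 and PARN over CNOT7 are lowest in the replicate 3 libraries (triangles) of both groups, and exact permutation p-values of the 7 differences lay between 0.4 and 0.9.

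The 9 deadenylase genes together held 616, 558 and 1477 CPM in malathion replicates 1, 2 and 3, and 554, 485 and 424 CPM in control replicates 1, 2 and 3. The lowest malathion library was only just above the highest control library, and the mean difference of 396 CPM was 99.6 CPM without malathion replicate 3. The exact two-sided permutation p was 0.1, the smallest that 3 against 3 libraries allow, and 0.2 without malathion replicate 3. CNOT7 made up 55.3%, 40.9% and 92.5% of the sum in malathion replicates 1, 2 and 3, and 46.4%, 27.6% and 96.3% in control replicates 1, 2 and 3. Without CNOT7 the other 8 genes summed to 275, 330 and 111 CPM in malathion replicates 1, 2 and 3, against 297, 351 and 15.8 CPM in control replicates 1, 2 and 3, and the groups overlapped. For the sum of these 8 genes the exact two-sided permutation p was 0.9. These sums are shares of reads and not of molecules.

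The genes around the deadenylases were read from lists of 61 symbols, of which 55 were in the count tables and 50 were tested. None of the 50 passed edgeR's quasi-likelihood test, and 0 had an unadjusted p under 0.05. With library totals 11 were positive and 39 negative (median log2 fold change −0.51, against −0.33 over all tested genes), and with TMM factors 22 and 28 (median −0.27, against −0.077). The other CCR4-NOT subunits (5 tested) were all negative on library totals, between −0.53 and −0.12, and 4 of the 5 were positive with TMM factors. CNOT4, a ubiquitin ligase of the complex, stood at 141, 132 and 28.0 CPM in malathion replicates 1, 2 and 3, and at 131, 179 and 17.1 CPM in control replicates 1, 2 and 3. CNOT9, which binds proteins that recruit the complex, stood at 34.0, 24.5 and 4.92 CPM in malathion replicates 1, 2 and 3, and at 28.9, 40.7 and 4.85 CPM in control replicates 1, 2 and 3. Both genes kept more of their level in the replicate 3 libraries than CNOT8 or PARN.

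The other members of the BTG/TOB family (4 tested), relatives of BTG4 that also bind CNOT7 and CNOT8, were each negative on both scalings, with a median of −2.22 on library totals and −1.74 with TMM factors. TOB1 stood at 6.51, 6.34 and 0.874 CPM in malathion replicates 1, 2 and 3, and at 4.25, 7.86 and 94.9 CPM in control replicates 1, 2 and 3. TOB2 stood at 2.36, 7.35 and 1.82 CPM in malathion replicates 1, 2 and 3, and at 2.56, 27.0 and 2.68 CPM in control replicates 1, 2 and 3. The high value of each gene was in 1 control library, control replicate 3 for TOB1 and control replicate 2 for TOB2. Without both replicate 3 libraries TOB1 had a log2 fold change of 0.086 ± 0.70 (SE) and 1 of the 4 genes was positive.

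Of the other deadenylases 5 were tested, 1 positive and 4 negative (median −0.84; 0 and 5 with TMM factors). NOCT, nocturnin, a deadenylase relative whose level follows the circadian clock in mouse, stood at 299, 358 and 441 CPM in malathion replicates 1, 2 and 3, and at 295, 129 and 1541 CPM in control replicates 1, 2 and 3. Its log2 fold change was −0.84 ± 1.81 (SE) and 0.63 ± 0.50 without both replicate 3 libraries. PNLDC1, a relative of PARN that trims piRNAs in mouse, stood at 32.7, 49.7 and 0.0709 CPM in malathion replicates 1, 2 and 3, and at 32.3, 114 and 1.19 CPM in control replicates 1, 2 and 3. TOE1 was at 0 counts in each library and was not tested.

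Recruiters and partners of the deadenylases (12 tested) were 3 positive and 9 negative (median −0.18; 6 and 6 with TMM factors). EIF4E, the cap-binding protein, stood at 364, 376 and 2904 CPM in malathion replicates 1, 2 and 3, and at 262, 444 and 2945 CPM in control replicates 1, 2 and 3. It was high in both replicate 3 libraries, as CNOT7 was. CPEB1, which keeps stored mRNA under control through its tail, stood at 476, 467 and 3.40 CPM in malathion replicates 1, 2 and 3, and at 446, 344 and 4.78 CPM in control replicates 1, 2 and 3. Genes of tail synthesis and binding (9 tested) were 2 positive and 7 negative (median −0.43; 4 and 5 with TMM factors). PAPOLG, a poly(A) polymerase, stood at 32.0, 50.1 and 124 CPM in malathion replicates 1, 2 and 3, and at 33.7, 376 and 270 CPM in control replicates 1, 2 and 3. PABPC4, a poly(A)-binding protein, stood at 43.0, 65.8 and 5.27 CPM in malathion replicates 1, 2 and 3, and at 66.4, 85.3 and 2.38 CPM in control replicates 1, 2 and 3.

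Genes of decapping and of decay from the 5′ end (15 tested), the steps after tail removal, were 5 positive and 10 negative (median −0.60; 8 and 7 with TMM factors). DCP1A, an activator of decapping, stood at 68.3, 98.5 and 2.53 CPM in malathion replicates 1, 2 and 3, and at 103, 197 and 1.90 CPM in control replicates 1, 2 and 3. DCP2, the decapping enzyme, stood at 58.9, 87.2 and 27.4 CPM in malathion replicates 1, 2 and 3, and at 64.0, 178 and 11.2 CPM in control replicates 1, 2 and 3. For both genes control replicate 2 was the highest library and the replicate 3 libraries the lowest, and the groups overlapped.

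Among the 4716 other named genes that averaged 10 CPM or more, the 5 whose log2 of CPM plus 1 followed BTG4 most closely over the 6 libraries were ACYP2, APMAP, CCNB1, MESP1 and AADAC (Pearson r = 0.999, 0.993, 0.988, 0.987 and 0.986). The libraries fall into unlike groups and share library and amplification, so r is a description of order and spacing only. ACYP2, an acylphosphatase, stood at 529, 451 and 142 CPM in malathion replicates 1, 2 and 3, and at 480, 320 and 223 CPM in control replicates 1, 2 and 3, a far smaller span than that of BTG4. CCNB1, the cyclin of maturation-promoting factor, stood at 2211, 2037 and 6.59 CPM in malathion replicates 1, 2 and 3, and at 2248, 563 and 116 CPM in control replicates 1, 2 and 3. Over the 4 libraries of replicates 1 and 2 the r of these 5 genes was 0.918 to 0.998. Among the 9 deadenylase genes, CNOT2 was most like BTG4 over the 6 libraries (r = 0.898), while CNOT7 had r = −0.712. Over the 4 libraries of replicates 1 and 2 the order changed, with r = 0.985 for CNOT7, 0.979 for PAN2 and −0.999 for PARN, so each of these values rests on which libraries are counted.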

How the data were processed

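RNA-seq covered 6 libraries, 3 malathion and 3 control. Per the labels' protocols, polyadenylated RNA was amplified by a modified Smart-seq2 method, which uses no molecular identifiers and does not mark strand. The deposited files hold read counts per Ensembl gene, and the values show no normalization by the authors. Per the submitters' processing notes, STAR 2.5.3a, HTSeq 0.9.1 and DESeq2 1.20.0 were used. Their roles, the build, the gene annotation and any strand setting are not given in the sources used here, so overlapping and antisense genes cannot be separated. The 5 HTSeq rows that name no gene took 36.7% to 42.6% of all reads and were left out. Symbols were known for 14857 of 25880 genes. No pair of libraries was a duplicate (chi-square over degrees of freedom at least 57.7).

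CPM were computed on the sum of gene counts. The test was the two-sided quasi-likelihood F test of edgeR 4.0.16 (limma 3.58.1, R 4.3.3) on library totals, after filterByExpr (minimum count 10, minimum total 15), with Benjamini-Hochberg adjustment over 10678 genes at a threshold of 0.05. Fold changes are malathion over control, with standard errors taken from the F statistic. Library totals were used because TMM factors spanned 0.138 to 3.57, and TMM rests on most genes being alike in all libraries. Alternatives were TMM factors, DESeq2 1.42.0, no filter, a replicate block and left-out libraries. The code was tested on simulated counts that varied less than these libraries, so that test does not show how well the fit detects differences here. Ratios of 2 genes had 0.5 added to each count and exact two-sided permutation tests. Sums over genes had the same test on CPM, without adjustment.

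The members, lists and rule for named genes were chosen with earlier results of these data known. The rule named the 10 genes, the 2 genes of highest mean CPM in each list, and the 5 genes most like BTG4. CNOT6, TOE1, WEE2, BMP15, ZP4, ZP2, MOS, NOBOX, AMH, VCAN, KITLG, HAS2, PTX3, TNFAIP6, FSHR, CYP11A1, STAR, INHBA, CYP17A1 and CDH5 were named outside it. Marker lists matched 14 of 16 oocyte, 12 of 15 cumulus and granulosa, and 10 of 11 other symbols. The groups share replicate numbers whose meaning no label gives. Same-numbered libraries deviated together from their group means across genes (r = 0.588, 0.382 and 0.652 for replicates 1, 2 and 3). Malathion replicate 2 correlated more with control replicate 1 (0.556), and malathion replicate 1 with control replicate 2 had r = 0.29. Deviations cancel within a group, so replicate 3 libraries that lie apart in both groups can raise the r of the others. These r therefore cannot show that replicates 1 and 2 are paired, and pairs follow the shared numbers only.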

Additional observations from a re-analysis of the deposited data

How the results depend on the processing

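No alternative called any of the 10 genes or any gene at all (0 in each, with 46 to 383 genes at an unadjusted p under 0.05), including the replicate block, which pairs same-numbered libraries and changed no call. CNOT7, PAN2 and, within the ratios, PAN2 over PAN3 kept their direction under each alternative run. Other signs changed for values well within their intervals, and the cause was not tested. With TMM factors the log2 fold change was −0.19 for BTG4, 0.035 for CNOT1, 0.36 for CNOT8 and 0.099 for PARN. DESeq2 gave −0.31 for BTG4, 0.31 for CNOT8 and 0.061 for PARN. It left 1119 genes without an adjusted p. CNOT7 (log2 fold change 1.68 ± 1.71, SE) and PAN2 (4.09 ± 1.36, SE) were among them. DESeq2 gave these 2 genes no unadjusted p either, so it could not call them. With the replicate block the values were −0.062 for BTG4, −0.081 for CNOT2, 0.60 for CNOT8 and 0.27 for PARN. Without control replicate 2 and both replicate 3 libraries they were −0.011 for BTG4, −0.078 for CNOT2, 0.59 for CNOT3, −0.16 for CNOT6L, 0.37 for CNOT8 and 0.12 for PARN. Leaving out 1 library gave ranges of −0.27 to 2.13 for BTG4, −1.14 to 0.35 for CNOT1, −0.62 to 0.66 for CNOT2, −1.99 to 0.99 for CNOT3, −0.43 to 0.50 for CNOT6L, 0.096 to 1.72 for CNOT7, −0.65 to 0.79 for CNOT8, 0.78 to 2.40 for PAN2, −2.01 to 0.30 for PAN3 and −1.17 to 0.55 for PARN. The median over the 10 genes ranged from −0.63 to 0.45, and was −0.013 without both replicate 3 libraries. Without control replicate 2 all 10 genes were positive, as were 79.0% of the genes tested then. The difference in mean CPM of BTG4 (8082 over all libraries) ranged from −2575 without malathion replicate 1 to 19434, and that of the summed 9 deadenylase genes (396) from 99.6 without malathion replicate 3 to 559. Differences in log2 ratios ranged from −2.57 to 1.64 for BTG4 over CNOT7 (0.43 without both replicate 3 libraries), −3.43 to 2.59 for CNOT8 over CNOT7, −1.04 to 2.59 for CNOT6L over CNOT6, −0.31 to 0.85 for CNOT2 over CNOT1, −1.19 to 0.58 for CNOT3 over CNOT1, 0.83 to 3.64 for PAN2 over PAN3 and −3.34 to 1.64 for PARN over CNOT7. Depth limits mainly CNOT3, the replicate 3 values of CNOT8 and PAN3, and PARN in control replicate 3 (8 counts).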
